A study of Homo sapiens with 6 samples.

Results

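A cassette exon is an exon that a transcript either keeps or skips. The exons described here are annotated cassette exons of 31 to 500 nt whose length is not a multiple of 3, so that keeping or skipping one of them moves the reading frame wherever the exon lies in coding sequence. They were measured in K562, a leukaemia cell line of the erythroid and myeloid lineage. The members were selected on annotation, length and depth: both junctions that join the exon to its neighbours and the junction that skips it are annotated, share their outer ends and lie on one strand. Each of the 3 junctions had 10 or more unique reads over the 6 libraries. The mean of both inclusion junctions plus the skipping junction came to 20 or more reads in every library. This gave 4860 combinations of an exon with its junctions, covering 4630 different exons, out of 19137 combinations (17561 exons) of cassette exons of any annotation and of 500 nt or less at the same depth. The rule itself uses read depth but no difference between the genotypes. The class and its rule were chosen with earlier results of these data known.

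The groups were 3 libraries titled WT, labelled U2AF1 wild type knock-in, and 3 libraries labelled U2AF1 S34F; all were poly(A)-selected RNA of K562, with no treatment given in the labels. Neither clones nor separate cultures are named there, so the p-values measure the spread between these libraries, which may be technical. The wild-type libraries held from 19380519 to 25429944 unique spliced reads and the S34F libraries from 18074706 to 39279169; S34F replicate 3 was the deepest. The substitution is not visible in junction counts, so the genotype could not be checked here, and neither were cell type markers, since genes at these positions were not analysed here.

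U2AF1 is the small subunit of the U2 auxiliary factor, which recognises the AG that ends an intron; serine 34 lies in one of its zinc fingers, and S34F is a recurrent substitution in myelodysplastic syndromes and myeloid leukaemia. The base just before the AG is known to influence which 3′ splice sites the mutant protein uses well. A skipped or added exon that shifts the frame often brings in a premature stop codon, and transcripts with such a codon can be degraded by nonsense-mediated decay. The steady-state inclusion level measured from RNA therefore reflects both splicing and the survival of each isoform. Positions are those of the files, counted from 1, in the hg19 build that the submitters' processing notes name. Genome sequence of that build was not used here, so exons are identified by position, and the splice site letters are not shown.

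To get the inclusion level, the reads of the upstream and downstream inclusion junctions were averaged, and this average was taken as a percentage of itself and the skipping reads together. Most members were either mainly kept or mainly skipped: mean inclusion in wild type was over 90% in 2184 combinations, under 10% in 1114 and between these limits in 1562. The median wild-type level was 86.3%, below the 93.2% over all 19137 cassette exons. The median length was 113 nt. Lengths left a remainder of 1 after division by 3 in 2363 combinations and of 2 in 2497. The median upstream intron was 1782 nt and the median downstream intron 1688.5 nt. All 3 junctions had the GT-AG motif code in 4733 combinations, 127 had at least 1 GC-AG junction, and 0 had an AT-AC junction. The shallowest library of a member held a median of 79 reads. In 758 combinations at least 1 junction had fewer than 5 reads in one of the groups, so that it passed the depth rule largely through the other group. Of the 165 called combinations described below, 20 were of this kind.

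At the limits of the choice, the 23 members of 31 or 32 nt had a median wild-type inclusion of 87.7%, and the 18 annotated exons of 28 or 29 nt just outside had 74.1%. The 17 members within 20 nt below the upper limit had a median of 90.8%, against 93.2% for 22 exons up to 20 nt above it. The 70 members whose shallowest library just reached the limit of 20 reads had a median of 82.0%, against 63.8% for 76 exons up to 1 read below it. The 174 members whose thinnest junction had 10 pooled reads had a median of 95.4%, against 96.5% for 202 exons with 9.

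Libraries of one genotype were closer to each other than to the other genotype over the 4860 members. The mean absolute difference in inclusion was from 3.46 to 4.36 percentage points between wild-type libraries and from 3.19 to 3.84 between S34F libraries. It was from 4.64 to 5.83 between libraries of different genotype. Wild-type replicate 1 was the wild-type library nearest to the S34F libraries, at 4.64 to 4.78 points, and it lay 4.36 points from wild-type replicate 3. The level averaged over all members was 61.9%, 62.0% and 62.4% in wild-type replicates 1 to 3 and 62.7%, 61.2% and 61.8% in S34F replicates 1 to 3. S34F replicate 1 was the highest library of all and S34F replicate 2 the lowest, so the groups overlapped.

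The comparison of S34F with wild type asks which of these exons changed their inclusion. In all, 165 of the 4860 combinations (3.4%) were called, meaning an edgeR adjusted p under 0.05 over all 19137 cassette exons and a difference of the group means of at least 10 percentage points. Over all cassette exons 2.72% were called by the same rule, so the members' share was near the background. Of the 165, 65 rose in S34F and 100 fell; over all cassette exons 1.02% were called higher and 1.7% lower. The calls covered 164 different exons. The calls had a median absolute difference of 19.2 points, against 2.15 points over all members and 1.74 over all cassette exons tested. The median signed difference of the members was -0.014 points, so the median of the class lay near 0. All 3 S34F libraries lay above all 3 wild-type libraries in 658 members (13.5%; 12.7% of all cassette exons) and below them in 809 (16.6%; 16.7% of all). Among the 165 calls the groups did not overlap in 163.

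**Figure D1:**
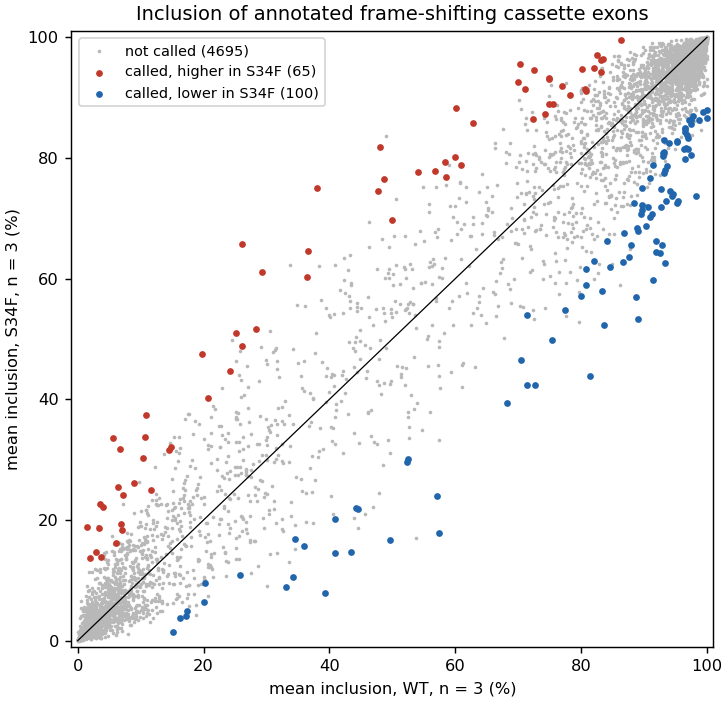
Mean inclusion of each frame-shifting cassette exon in wild type (x axis, %) and in S34F (y axis, %), n = 3 libraries each; the line marks equal inclusion. The 65 called rises and 100 called falls stand away from the line, and the 4695 other combinations lie around it.

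How many exons passed changed with the library left out and with the method. Leaving out a library also makes its group smaller and changes the set of exons tested. The parts of these in the counts below were not told apart. Without S34F replicate 3, edgeR called 0 of the 4159 members tested and 0% of 14623 cassette exons; 699 members (16.8%) then had an unadjusted p under 0.05, and the lowest adjusted p of a member was 0.0579. Without wild-type replicate 1, it called 310 of 4485 members, beside 6.14% of 16787 cassette exons. Without wild-type replicates 2 and 3 the count was 43 and 107, and without S34F replicates 1 and 2 it was 36 and 26. Wild-type replicate 1 was the wild-type library nearest to the S34F mean in 98 of the 165 calls. With DESeq2, 30 members were called, beside 0.533% of all cassette exons, and all 30 were among the 165. Limma on log2 odds called 0 members, with 976 at an unadjusted p under 0.05 and a lowest adjusted p of 0.0563.

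**Figure D2:**
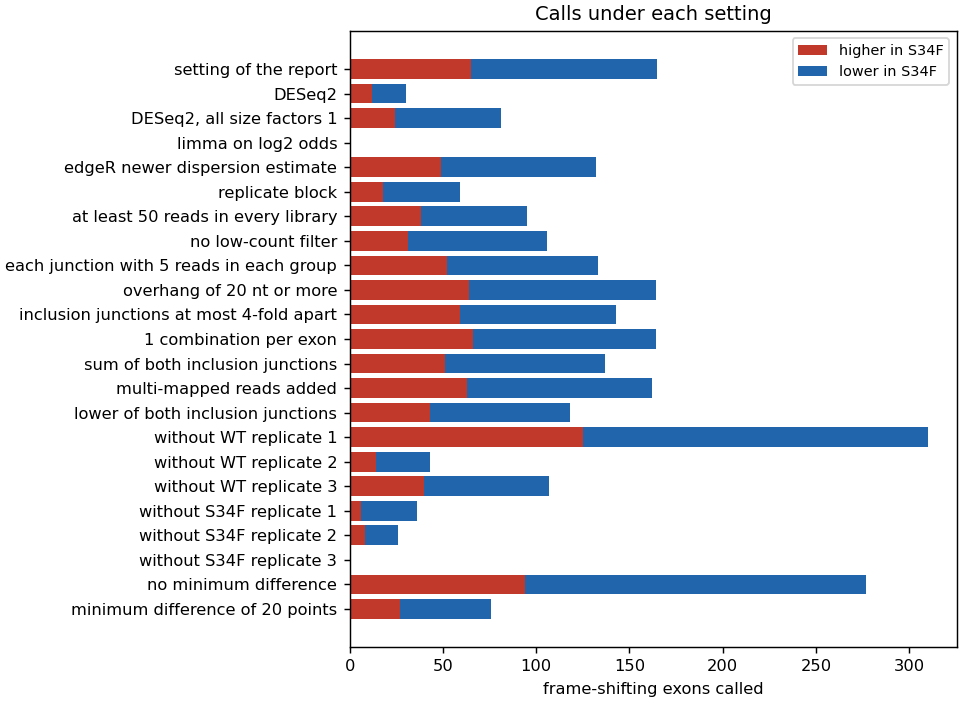
Number of frame-shifting exons called in S34F against wild type (x axis) under the setting of the report and each alternative (y axis), split into rises and falls. The count was 165 in the report's setting, 310 without wild-type replicate 1, and 0 without S34F replicate 3 or with limma.

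The exons described next are the 10 largest called rises and the 10 largest called falls among exons whose groups did not overlap, each through its combination with most reads. Their separation by group thus follows from the choice and supports nothing. Larger than some of them, but outside this rule, were a called rise of 28 points whose groups overlapped (chr19:23839524-23839624) and 2 called falls seen in a less-read combination, described further on.

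Of the 65 rises, 50 were in exons included at 10% to 90% in wild type. The largest rise was in a 100 nt minus-strand exon of chromosome 3, from 196803457 to 196803556. Its inclusion was 29.6%, 26.8% and 22.0% in wild-type replicates 1 to 3 and 62.7%, 60.0% and 74.3% in S34F replicates 1 to 3. The lowest S34F library was thus above the highest wild-type library by more than the range within either group. The skipping junction had 38, 45 and 32 reads in wild type, against 11, 9 and 14 in S34F, although S34F replicate 3 was the deepest library. The upstream junction had 24, 25 and 14 reads in wild type and 31, 23 and 66 in S34F. The downstream junction had 8, 8 and 4, against 6, 4 and 15, so the level rested mainly on the upstream junction. Against the skipping junction, the upstream share rose by 41.1 points and the downstream share by 24.7. The change was 2.52 in log2 odds (SE 0.45, edgeR adjusted p = 0.00651). The shallowest library of this exon, S34F replicate 2 with 22.5 reads, had a 95% Clopper-Pearson interval from 38.5% to 80.3%, which covers counting error only.

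On the minus strand of chromosome 2, a 74 nt exon from 175957271 to 175957344 was included at 57.1%, 27.3% and 29.8% in wild type and at 81.5%, 69.2% and 74.2% in S34F. Wild-type replicate 1 stood between its own group and S34F, but the groups did not overlap. The change was 2.30 in log2 odds (SE 0.49, edgeR adjusted p = 0.0147). The skipping junction, an intron of 12295 nt in all, had 48, 80 and 59 reads in wild type, against 10, 12 and 27 in S34F.

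A 61 nt plus-strand exon of chromosome 12, from 4716493 to 4716553, was included at 48.7%, 53.8% and 41.3% in wild type and at 83.2%, 77.8% and 84.6% in S34F. All S34F libraries were close together and well above wild type (log2 odds 2.37, SE 0.45, edgeR adjusted p = 0.00863). Its flanking introns were 2240 and 2767 nt long.

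The tightest replicates among the large rises were those of a 122 nt plus-strand exon of chromosome 7, from 75510683 to 75510804. It was included at 27.6%, 29.3% and 31% in wild type and at 61.5%, 58.4% and 63.6% in S34F. Neither group spanned more than a few points, and the groups were far apart (log2 odds 1.96, SE 0.35, edgeR adjusted p = 0.00659). Both inclusion junctions moved alike: the share of the upstream junction against the skipping junction rose by 29.8 points and that of the downstream junction by 33.3.

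Another 74 nt exon, from 73284469 to 73284542 on chromosome 17 (minus strand), was at 33.3%, 72.2% and 75% in wild type and at 90.7%, 85.4% and 88.8% in S34F. Here wild-type replicate 1 was far below the other 2, and the margin between the groups was small beside that gap (log2 odds 2.23, SE 0.64, edgeR adjusted p = 0.0486).

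On chromosome 22, a 65 nt minus-strand exon from 39150647 to 39150711, was included at 39.1%, 44.0% and 26.7% in wild type and at 55.3%, 67.1% and 71.3% in S34F (edgeR adjusted p = 0.0375). A 94 nt minus-strand exon of chromosome 21, from 37429682 to 37429775, was at 15.1%, 19.1% and 25.2% in wild type and at 51.8%, 42.6% and 48.3% in S34F (edgeR adjusted p = 0.0152). The spread within a group was wide in the first exon and narrower in the second.

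The 47 nt exon from 32988081 to 32988127 on chromosome 9 (minus strand) was the shortest of the 10 largest rises. Its level was 56.9%, 48.6% and 40.6% in wild type, against 72.8%, 76.2% and 80.5% in S34F (edgeR adjusted p = 0.0158). A 142 nt minus-strand exon of chromosome 12, from 31457916 to 31458057, was at 65.9%, 36.6% and 40.6% in wild type and at 75.4%, 76.7% and 71.6% in S34F (edgeR adjusted p = 0.0316). Its upstream intron of 20900 nt was the longest next to any of these 20 exons, and wild-type replicate 1 was again the one nearest to S34F.

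The last of the 10 was an 88 nt plus-strand exon of chromosome 11, from 108095511 to 108095598, which was mostly skipped in wild type. Inclusion was 12.9%, 14.6% and 5.13% in wild type, against 36.3%, 42.9% and 33.3% in S34F, with 28 to 51.5 reads per library (log2 odds 2.14, SE 0.51, edgeR adjusted p = 0.0233). Its upstream junction had 1, 6 and 1 reads in wild type, against 14, 7 and 8 in S34F. A better-covered exon of the same kind, chosen after its values were seen, was the 113 nt plus-strand exon of chromosome 22 from 22024553 to 22024665. It was at 8.83%, 4.46% and 6.92% in wild type and at 32.6%, 32% and 30.9% in S34F (log2 odds 2.69, SE 0.36, edgeR adjusted p = 0.00182).

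**Figure D3:**
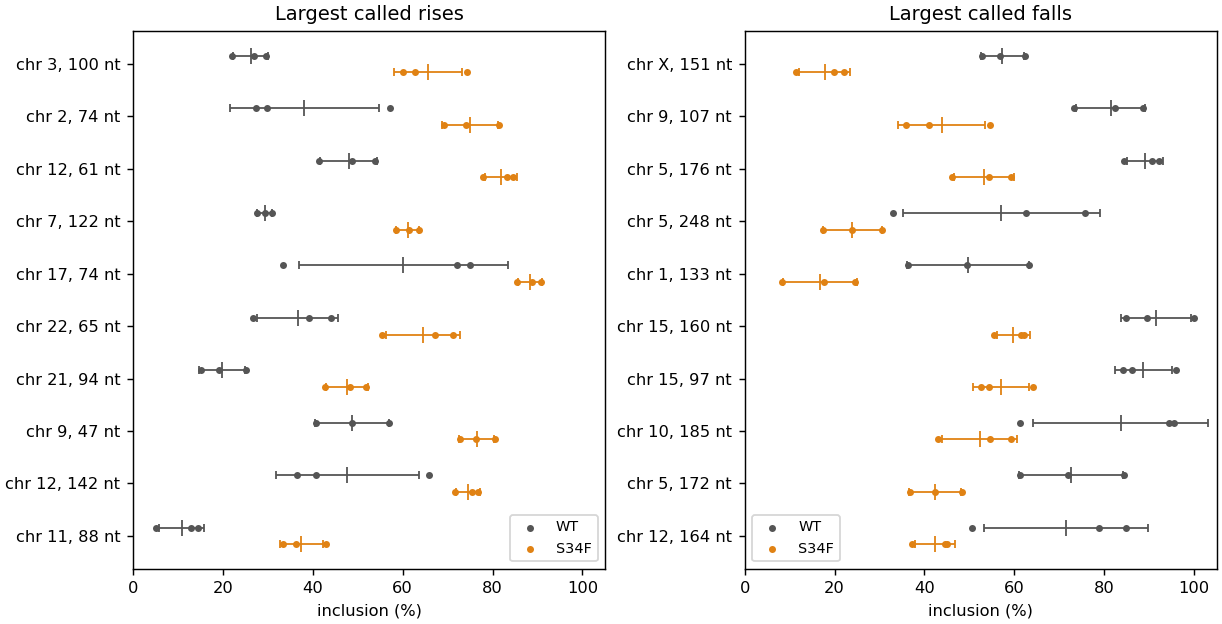
Inclusion (x axis, %) of the 10 largest called rises (left) and the 10 largest called falls (right) in each library; small points are libraries, ticks are means and bars are SD, n = 3 per group. Exons are labelled by chromosome and length, and the exons were chosen as called exons whose groups do not overlap.

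Exons that fell in S34F were often the main form in wild type. Of all falls, that of a 151 nt minus-strand exon of chromosome X, from 106397326 to 106397476, was the largest. Its inclusion was 62.5%, 56.7% and 52.9% in wild type, against 22.2%, 11.4% and 19.9% in S34F. The groups lay far apart with tight replicates. The upstream junction, over an intron of 13402 nt, had 96, 64 and 60 reads in wild type, against 20, 8 and 30 in S34F, while the skipping junction had 64, 55 and 53 against 65, 82 and 133. The change was -2.62 in log2 odds (SE 0.39, edgeR adjusted p = 0.00243).

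On chromosome 9, a 107 nt plus-strand exon from 134381501 to 134381607, was at 73.3%, 82.4% and 88.7% in wild type and at 41.0%, 35.8% and 54.5% in S34F (log2 odds -2.26, SE 0.51, edgeR adjusted p = 0.0202). The margin between the groups was wide, but the skipping junction rested on 12, 6 and 3 reads in wild type. On chromosome 5, a 176 nt plus-strand exon from 41939543 to 41939718, was at 84.5%, 92.2% and 90.6% in wild type and at 54.4%, 59.1% and 46.2% in S34F (log2 odds -2.80, SE 0.47, edgeR adjusted p = 0.00473). Its inclusion junctions moved together, by -35.9 points upstream and -35.5 downstream.

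Also on chromosome 5, a 248 nt exon on the minus strand from 176958954 to 176959201 was at 32.9%, 62.6% and 75.7% in wild type and at 30.4%, 17.3% and 24.0% in S34F (edgeR adjusted p = 0.0416). Wild-type replicate 1 was almost level with S34F replicate 1, so the separation was narrow. A 133 nt plus-strand exon of chromosome 1, from 211485697 to 211485829, was at 36.3%, 49.5% and 63.3% in wild type and at 24.4%, 8.24% and 17.6% in S34F (edgeR adjusted p = 0.0167). Here all S34F libraries were below all wild-type libraries, with a wide spread within both groups.

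Next came a pair of exons on the plus strand of chromosome 15. The 160 nt exon from 43695881 to 43696040 was at 84.9%, 89.6% and 100% in wild type and at 61.4%, 55.6% and 62.2% in S34F (edgeR adjusted p = 0.0177). Its level rested on the upstream junction, since the downstream junction had at most 4 reads in a library, and wild-type replicate 3 had 0 skipping reads. That downstream junction had 8 reads in wild type and 3 in S34F, so it met the limit of 10 pooled reads mainly through wild type, where inclusion was higher, and the call is given as a description only. The exon fell below the depth limits in 3 of the 6 fits without a library. The 97 nt exon from 74914461 to 74914557 was at 84.1%, 86.2% and 95.9% in wild type and at 64.0%, 54.4% and 52.6% in S34F (log2 odds -2.66, SE 0.51, edgeR adjusted p = 0.00889). For this exon the summed inclusion and skipping reads, scaled to the unique spliced reads of the library, were also lower in S34F, by -1.03 in log2.

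The 185 nt plus-strand exon of chromosome 10, from 70098260 to 70098444, was the most deeply covered of these falls, with 109.5 to 682 reads per library. It was at 61.1%, 94.3% and 95.4% in wild type and at 59.2%, 43.1% and 54.5% in S34F (log2 odds -2.37, SE 0.65, edgeR adjusted p = 0.0397). Wild-type replicate 1 was within 2 points of S34F replicate 1, and the skipping junction had 95 reads there against 10 and 5 in the other wild-type libraries. A shorter form with the same acceptor, 140 nt long and ending at 70098399, was not called. Its level was 69.1%, 96.8% and 97.2% in wild type against 69.9%, 57.7% and 67.0% for S34F, and its groups overlapped (edgeR adjusted p = 0.0515). It and a 179 nt form of the 248 nt exon of chromosome 5 were the only other members with an end and the skipping junction of one of the 20 exons. That form was at 19.7%, 45.2% and 68.7% in wild type and at 25.1%, 14% and 16.9% in S34F, again with an overlap through wild-type replicate 1 (edgeR adjusted p = 0.103). Both were chosen after their values were seen.

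The 172 nt exon from 74889703 to 74889874 on the plus strand of chromosome 5 was at 61.4%, 72.0% and 84.4% in wild type and at 36.7%, 42.3% and 48.2% in S34F (edgeR adjusted p = 0.0443). Its upstream junction fell to 1, 2 and 4 reads in S34F, from 19, 21 and 16 in wild type. A 164 nt minus-strand exon of chromosome 12, from 49089782 to 49089945, was at 50.6%, 78.7% and 84.8% in wild type and at 45.1%, 44.6% and 37.2% in S34F (edgeR adjusted p = 0.0372). Wild-type replicate 1 was again the one nearest to S34F.

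None of these 20 exons kept an adjusted p under 0.05 without S34F replicate 3; the 19 that could be tested had values from 0.0611 to 0.243. With DESeq2, 8 of the 20 passed, and with limma 0 did.

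The direction of the calls followed the level in wild type, as the limits at 0% and 100% require of large changes. Of the 1114 members under 10% in wild type, 15 rose and 0 fell. Between 10% and 90%, 50 of 1562 rose and 51 fell, so rises and falls were about equal among exons free to move either way. Over 90%, 49 of 2184 fell and 0 rose. The share called was 6.47% in the middle class (6.9% over all cassette exons of that class), 1.35% below it (0.996%) and 2.24% above it (1.65%).

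Length went with the direction as well. Among the 2004 members of 100 nt or less, 37 rose and 38 fell; among the 2240 longer ones of up to 200 nt, 25 rose and 52 fell; among the 616 over 200 nt, 3 rose and 10 fell. Over all cassette exons there were 113 rises and 107 falls in the first class, 65 and 162 in the second, and 17 and 40 in the third. No test of the length pattern was made. The median length was 94 nt among the rises, 130.5 nt among the falls and 113 nt over all members. The rises also had a lower median wild-type inclusion, 47.7%, than the falls, 89.7%, and the part of either property in the other was not tested. By remainder, 3.6% of the members with remainder 1 were called and 3.2% of those with remainder 2, against 2.35% and 2.4% over all cassette exons; these shares were not tested.

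The length of the downstream intron went with the direction too. In members whose downstream intron was at or below the median, S34F lay entirely above wild type in 11.9% and entirely below it in 18.9%; in those with a longer downstream intron the shares were 15.1% and 14.4%. Over all cassette exons they were 10.5% and 19.2%, and 14.9% and 14.1%, so all cassette exons showed the same pattern; no test of it was made. Of the 127 members with a GC-AG junction, 2 rose and 3 fell (3.94%), against 3.55% called of 282 such cassette exons in all.

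**Figure D4:**
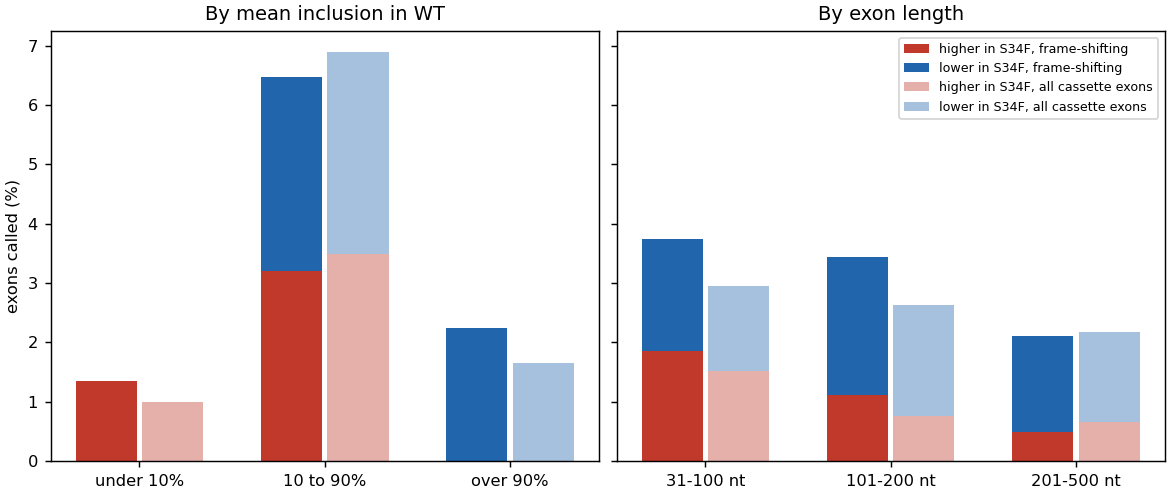
Share of exons called (y axis, %) by mean wild-type inclusion (left) and by exon length (right), with rises and falls stacked, for frame-shifting exons (dark bars) and all cassette exons (pale bars). The share was 6.47% for frame-shifting exons at 10% to 90% inclusion, and falls outnumbered rises in the 2 longer length classes.

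Annotated exons that preserve the frame are the closest class by construction. Of 3467 such combinations of 31 to 500 nt, 144 (4.15%) were called, 65 higher and 79 lower, with a median difference of 0.036 points. Their median wild-type inclusion was 84.6%. Cassette exons of 3 to 30 nt gave 17 calls among 387 (4.39%), of which 0 were higher. No test of these shares was made.

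Each exon has 2 inclusion junctions, which give separate readings against the same skipping junction. In 161 of the 165 calls both readings changed in the same direction, and in 130 both changed by at least 10 points. In 4 calls they went opposite ways. Among all members, 19.1% had inclusion junctions whose pooled reads differed over 4-fold; among the calls it was 22.4%, and 24 of the 35 calls that lacked agreement of 10 points were of this kind. Fitting only the exons with inclusion junctions at most 4-fold apart gave 143 calls.

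**Figure D5:**
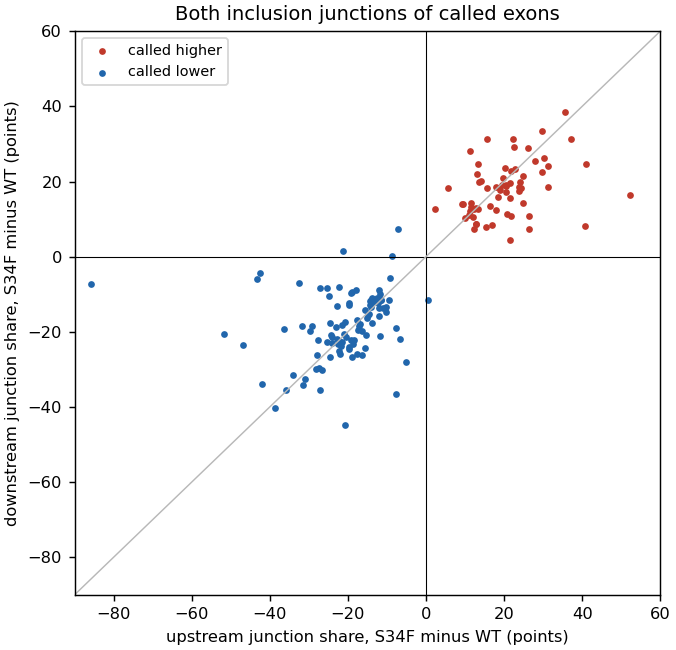
Change in the share of the upstream inclusion junction (x axis) and of the downstream one (y axis), each against the skipping junction, S34F minus wild type in percentage points, for the 165 called exons; the grey line marks equal change. In 161 exons both readings have the same sign.

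The total of inclusion and skipping reads at an exon, scaled to the unique spliced reads of the library, follows the abundance of the transcripts that cross it. Its median log2 ratio of S34F to wild type was -0.043 among the rises and -0.051 among the falls, against -0.011 over all members. The lower and upper quartiles were -0.35 and 0.24 among the rises and -0.36 and 0.17 among the falls, so both medians were small beside the spread. In the 20 exons named above the values ran from -1.03 to 0.91. No test was made of this total.

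The 165 calls fell into 153 loci, taking as 1 locus all calls with overlapping skipping junctions on a strand. In 11 loci there were 2 or 3 calls; 3 of these loci held rises only, 7 falls only, and 1 held both. Several are forms of one exon with different ends, so their values share reads. On the plus strand of chromosome 17, for example, 3 forms ending at 25628982 and starting at 25628814, 25628844 and 25628907 all fell, from means of 94.0%, 89.5% and 89.6% to 82.4%, 70.7% and 71.4%. The middle form rested on its downstream junction, since its own upstream junction had at most 3 reads in a library. Its upstream reading changed by 0.47 points, opposite to the fall. The form starting at 25628907 also rested mainly on that shared downstream junction. Its own upstream junction had 5, 7 and 12 reads in wild type and 10, 8 and 12 in S34F, with a change of -11.5 points. The exons of these loci outside the 20 above were chosen after their values were seen.

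The locus with both directions was that of the 100 nt exon on chromosome 3. A 34 nt exon just downstream of it in the transcript, from 196802708 to 196802741, fell while the 100 nt exon rose. It was at 48.7%, 43.1% and 41.1% in wild type and at 21.5%, 25.3% and 19.2% in S34F, with no overlap (log2 odds -1.56, SE 0.40, edgeR adjusted p = 0.0307). Its upstream reading changed by only -5.02 points (8, 8 and 4 reads in wild type, 6, 4 and 15 in S34F). Its downstream reading changed by -28.1 points. The skipping junction of the 100 nt exon ends at the 34 nt exon. The downstream junction of the 34 nt exon can thus also carry transcripts that skip the 100 nt exon. The 715 nt intron between both exons is an inclusion junction of each, so the values of the 2 exons are not independent.

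When 2 frame-shifting exons lie inside one skipped stretch, losing both can keep the frame. Among the members there were 131 pairs of separate exons with the same skipping junction, and in 65 of these an annotated junction with at least 10 pooled reads joined the 2 exons. The summed length was a multiple of 3 in 33 of the 65 pairs (50.8%). A path level was taken from the mean of the 3 junctions of the path through both exons against the skipping junction. Its median was 55.3% in wild type and 57.2% in S34F for these 33 pairs, and 57.6% and 56.2% for the other 32. The outer junctions can also serve transcripts that keep only the first or only the second exon. The path level can therefore exceed the share that keeps both. Only the junction that joins the exons, here the linking junction, shows both in the same transcript.

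Both exons were called against the shared skipping junction in 2 pairs, and in each the sum was a multiple of 3. On the minus strand of chromosome 9, exons of 94 nt (140470761 to 140470854) and 134 nt (140471922 to 140472055) add up to 228 nt. Their path level was 94.9%, 95.5% and 95.1% in wild type, against 82.9%, 61.0% and 72.5% in S34F. The nearly constant wild-type level thus rested on few skipping reads, and S34F was lower in every library but spread widely. The 2 exons of a pair share their skipping reads, so their calls are not separate readings. The edgeR adjusted p-values of the single exons were 0.0137 and 0.00593.

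On the plus strand of chromosome 3, exons of 166 nt (119219542 to 119219707) and 89 nt (119222379 to 119222467) add up to 255 nt. Their path level was 97.0%, 99.3% and 98.2% in wild type, against 90.3%, 87.8% and 94.5% in S34F (edgeR adjusted p = 0.0456 and 0.045 for the single exons). All S34F libraries were below wild type in path level. A pair whose path level rose lay on the minus strand of chromosome 11, with exons of 127 nt (31477807 to 31477933) and 134 nt (31484719 to 31484852). Its path level was 34.9%, 30.4% and 23.0% in wild type, against 53.0%, 51.7% and 56.7% in S34F. The linking junction held only 12, 8 and 11 reads in wild-type replicates 1 to 3, beside 90, 84 and 87 skipping reads. For S34F replicates 1 to 3 its count was 1, 4 and 3, beside 13, 19 and 28 skipping reads. Taken against the skipping reads, these few linking reads did not separate the groups. No rise of transcripts with both exons is therefore read from this pair. The summed reads of the called exon were lower in S34F by -1.68 in log2. Of these 2 exons only the 127 nt one was called; the sum is 261 nt.

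In all, 5 of the 65 pairs held an exon called against the skipping junction of the pair. The sum was a multiple of 3 in the 3 pairs above but not in the other 2. Exons called against another skipping junction, as at chr17:5329556-5329619, are not counted here. On the plus strand of chromosome 14, exons of 74 nt (23300173 to 23300246) and 65 nt (23302627 to 23302691) add up to 139 nt. Their path level was 92.8%, 91.4% and 89.7% in wild type, against 81.8%, 82.3% and 77.8% in S34F. The linking junction held 31, 31 and 37 reads in wild-type replicates 1 to 3, beside 28, 37 and 36 skipping reads. For S34F replicates 1 to 3 its count was 10, 11 and 19, beside 90, 70 and 225 skipping reads. By the linking junction, transcripts with both exons were thus a smaller share than the path level, and that share fell more. The 74 nt exon, against the junction that skips both, was at 44.6%, 33.9% and 39.5% in wild type and at 9.55%, 7.28% and 7.02% in S34F, and was called (edgeR adjusted p = 0.00243). Its upstream reading changed by -42.5 points and its downstream reading by only -4.31. The upstream junction also serves transcripts that keep both exons. On chromosome 15 (plus strand), exons of 142 nt (45884333 to 45884474) and 88 nt (45895298 to 45895385) add up to 230 nt. Their path level was 87.2%, 85.6% and 86.4% in wild type, against 95.9%, 92.3% and 94.6% in S34F, and the 142 nt exon was called. In these pairs too the path levels of the groups did not overlap. All 5 pairs are described because they hold a called exon, whose skipping reads the path level shares. The separation thus largely follows from the choice and supports nothing. With 5 pairs, nothing is read from how often the sum was a multiple of 3.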

How the data were processed

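The data are splice junction tables of 6 libraries of poly(A)-selected RNA. Per the submitters' processing notes, STAR and hg19 were used; the aligner's version, the annotation and the junction filters are not given in the sources used here. The deposited values are raw counts of uniquely mapped and of multi-mapped reads per junction in each library, without normalization, and the ninth column deposited is another value, the largest overhang in nt. Junctions missing from a table were counted as 0.

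Events were built from unique counts of junctions with a strand. The 2 counts per library and event (mean of both inclusion junctions, rounded, and skipping) were fitted over 19137 cassette exons with edgeR 4.0.16 (R 4.3.3; quasi-likelihood F-test, robust, legacy dispersion), with 1 intercept for every library, a term for the type of count and the interaction of that type with S34F, without a replicate block; the p-values were adjusted by the Benjamini-Hochberg method over all 19137. The coefficient is the change in log2 odds, and its SE is the absolute coefficient over the square root of F. The fit was tested on simulated data. DESeq2 1.42.0 and limma 3.58.1 (log2 odds, pseudocount 0.5) were alternatives; figures and tables used Python 3.11.15.

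Intervals are 95% Clopper-Pearson intervals, counting error only. The exons named are, by rule, the 10 largest called rises and falls whose groups did not overlap, each through its combination with most reads; others are named as chosen after their values were seen. Up to 5 called exons in each direction that also pass with DESeq2 and limma were to be named, but 0 pass with limma. Gene lists, cell type markers and splice site sequence were planned and not analysed here, because genome and annotation of this build were not used. The members, lists and rules were chosen with earlier results of these data known. Among the alternatives, the sum of both inclusion junctions and DESeq2 with all size factors at 1 were added after seeing the data.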

Additional observations from a re-analysis of the deposited data

How the results depend on the processing

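The count of 165 calls stayed within 1.5 times with 8 alternatives that kept all libraries: 132 with edgeR's newer dispersion estimate, 133 with 5 reads per junction in each group, 164 with an overhang of at least 20 nt, 143 with inclusion junctions at most 4-fold apart, 164 with 1 combination per exon, 137 with the sum of both inclusion junctions, 162 with multi-mapped reads and 118 with the lower inclusion junction. The canonical motif setting is the same fit, since every junction with a strand has such a motif. It moved to 30 with DESeq2, 81 with DESeq2 and all size factors at 1, 0 with limma on log2 odds (976 at an unadjusted p under 0.05), 95 with at least 50 reads in every library (3283 members tested), 106 with no low-count filter (13972 tested), 277 with no minimum difference and 76 with a minimum of 20 points. DESeq2's own size factors moved the median log2 odds of the members from -0.0023 to 0.14, so its calls are relative to that shift; the cause of the lower counts was not tested. Falls were 60.6% of the calls, 70.8% with no low-count filter, 70.4% with all size factors at 1 and 83.3% without S34F replicate 1. With any 1 library left out, the count lay between 0 and 310. Same-numbered libraries did not deviate together (correlations of -0.086, -0.0056 and -0.045), beside -0.058 to 0.099 for libraries of different number. The deviations were taken from the mean of each small group, which ties them to each other. These values therefore cannot settle whether the numbers pair the samples, and the labels do not say. With the replicate block 59 members were called, 58 of them among the 165. Groups that do not overlap numbered 1467 and moved to 3354 with no low-count filter. The 6 other settings compared for this count, all with every library, gave from 1037 to 1634. With 1 library left out, and so a smaller group, the number lay between 1629 and 2070. None of the 20 exons chosen by rule changed direction in an alternative that could test it; the other exons named were not followed through the alternatives. Depth limits single values: the shallowest library of a called exon held a median of 55 reads.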
